A study of Mus musculus with 9 samples.

Results

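MHC class I presentation was examined through 10 genes of the antigen presentation pathway, chosen by their symbols in the count table of mouse lymphomas, and 10 of 10 were found among its 41128 genes. Every nucleated cell displays peptides from its own cytosol on MHC class I molecules, which CD8+ T cells read. The peptides are cut by the proteasome, whose inducible catalytic subunits Psmb8 and Psmb9 replace constitutive ones in immune cells and after interferon-γ. They are pumped into the endoplasmic reticulum by the Tap1-Tap2 transporter, trimmed by the aminopeptidase Erap1, and loaded with the help of tapasin (Tapbp) onto a heavy chain, H2-K or H2-D, paired with β2-microglobulin (B2m). Nlrc5 is a transactivator of the class I heavy chain genes and of some others in this pathway. Loss of class I presentation is a common route by which B-cell lymphomas escape T cells.

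RNA was sequenced from 3 Bcl6 lymphomas (IµBcl6, Smc3 wt/wt) and 6 Smc3/Bcl6 lymphomas (IµBcl6, Smc3 wt/-), with 1 library per tumor. In the study, mice of both genotypes also carried Cγ1-Cre (Cγ1 wt/cre). The IµBcl6 allele forces B cells to go on expressing Bcl6. The Cre is switched on in B cells as they join a germinal center and removes a single Smc3 allele there, so it does not mark other cells of the tumor. No age or treatment is given in the labels, and the tissue is labelled mesenteric lymph node for replicate 1 of each genotype and lymph node for the other 7 tumors. The study's own text calls both genotypes' lymphomas mesenteric, which the labels leave unsettled.

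The libraries held 10156728 to 17774577 counts, and the 7 B cell markers were counted in all 9 of them. T cell markers summed to between 136 and 3154 CPM (counts scaled to a common library size with edgeR's TMM factors) and macrophage markers to between 269 and 8354 CPM, so the tumors were mixed tissue. In such bulk samples, fewer cells of a type and less RNA per cell cannot be told apart. Smc3 itself had 126, 99.5 and 88.1 CPM in the Bcl6 group (tumors 1, 2 and 3), and the Smc3/Bcl6 group had 27.9, 106 and 111 CPM (lowest, median, highest). The groups overlapped, and since counts cover the whole gene they do not check the deletion. The lowest value was that of Smc3/Bcl6 tumor 2, a library that stands apart from the rest, with the lowest TMM factor (0.693 against 0.964 to 1.10) and fewer counts in longer genes (Spearman correlation of its deviation with exon length of -0.47 across 13975 genes). Results for the 10 genes that rest on it are therefore given with and without it.

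Promoters of class I genes are known to share regulatory elements, and those of H2-K1, H2-D1, B2m and Tap1 are shown because the data below compare how these genes vary together. RefSeq promoter entries (GRCm38.p6) were found for 8 members, all but Tap2 and Nlrc5, and the 250 bases before the start of transcription are printed 5′ to 3′ on the strand of the gene. H2-K1 has 2 entries with nearby starts, of which the second is shown. Capitals mark matches, on either strand, to the NF-Y box CCAAT, the NF-κB site GGGATTCCC, the GAS element TTCNNNGAA, and the interferon response element core as GAAANNGAA or GAANNGAAA.

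H2-K1 (chr17:34000334-34000583, minus strand): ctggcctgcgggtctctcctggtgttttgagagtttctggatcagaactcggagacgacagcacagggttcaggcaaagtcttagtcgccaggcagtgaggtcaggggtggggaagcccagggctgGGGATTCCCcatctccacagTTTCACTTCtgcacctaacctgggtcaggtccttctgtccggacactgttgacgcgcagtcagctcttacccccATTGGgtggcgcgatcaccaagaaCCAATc
H2-D1 (chr17:35262844-35263093, plus strand): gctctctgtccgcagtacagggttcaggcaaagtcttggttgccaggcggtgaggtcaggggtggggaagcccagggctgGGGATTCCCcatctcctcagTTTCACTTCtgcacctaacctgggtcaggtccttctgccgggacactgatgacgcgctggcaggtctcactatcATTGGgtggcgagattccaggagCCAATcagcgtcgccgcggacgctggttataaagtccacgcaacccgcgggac
B2m (chr2:122147437-122147686, plus strand): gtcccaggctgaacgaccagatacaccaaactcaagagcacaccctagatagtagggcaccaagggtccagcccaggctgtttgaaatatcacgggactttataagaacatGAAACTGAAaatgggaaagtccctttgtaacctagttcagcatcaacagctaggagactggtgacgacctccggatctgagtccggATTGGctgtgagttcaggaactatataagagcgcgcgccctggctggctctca
Tap1 (chr17:34187306-34187555, plus strand): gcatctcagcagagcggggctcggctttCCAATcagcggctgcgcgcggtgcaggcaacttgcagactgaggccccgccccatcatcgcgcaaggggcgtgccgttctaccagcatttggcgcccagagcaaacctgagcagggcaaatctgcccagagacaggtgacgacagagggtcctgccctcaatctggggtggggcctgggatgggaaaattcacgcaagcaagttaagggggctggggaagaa

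The windows of H2-K1 and H2-D1 were 82.8% identical over 204 aligned bases, and both held the NF-κB site followed by an interferon response element core and NF-Y boxes. The NF-κB site GGGATTCCC was found in 0.301% of the 32851 promoter windows of the same length, the NF-Y box in 33.8%, the GAS element in 7.02%, and the interferon cores in 7.13% (GAAANNGAA) and 6.31% (GAANNGAAA). Of the 8 members with an entry, 6 held an NF-Y box (H2-K1, H2-D1, B2m, Tap1, Tapbp and Psmb9), 2 the first core (B2m and Erap1), 2 the second core and 2 the NF-κB site (H2-K1 and H2-D1 for each), and 1 the GAS element (Psmb8). Tap1 and Psmb9 are transcribed away from each other, their gene models share 212 bases on opposite strands, and the Psmb9 window (chr17:34187331-34187580) reads nearly the same DNA as the Tap1 window from the other strand. The NF-Y box of Tap1 and that of Psmb9 are the same site, counted for both genes. A match describes the letters only.

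Most of the pathway lies in the MHC on chromosome 17 of GRCm38, with Tapbp (33915899 to 33929292) and H2-K1 (33996017 to 34000347) at the proximal end and H2-D1 (35262730 to 35267499) at the distal end. Between them, Psmb9, Tap1, Psmb8 and Tap2 follow each other within 34335 bases (Psmb9 from 34181987, Tap2 to 34216321), with 495 bases between the end of Tap1 and the start of Psmb8. B2m is on chromosome 2 (122147686 to 122153083), Nlrc5 on chromosome 8 (94434356 to 94527272) and Erap1 on chromosome 13 (74639568 to 74693201). The whole B2m gene model lies within that of Patl2 on the opposite strand (5398 bases shared), and whether counting used strand is not given in the sources used here. Some sequence is also shared with other genes. Of the 50-base windows of all H2-K1 transcripts in GENCODE M21, 9.63% also occur in transcripts of other genes, H2-Q10 and H2-D1 first among them. The share was 12.8% for H2-D1, 23.2% for Tapbp, 11.9% for Psmb8, 11.6% for Tap2 and 10.7% for Erap1, and between 0% and 4.19% for B2m, Nlrc5, Tap1 and Psmb9. Reads from such windows may have been dropped or assigned to a neighbor, so the levels of H2-K1 and H2-D1 in particular are uncertain to that extent.

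All 10 genes were expressed in all 9 tumors, with a lowest count of 865 (Nlrc5 in Smc3/Bcl6 tumor 2), and 10 of 10 passed the filter on low counts. Levels of different genes were compared per length, as RPKM (CPM divided by exon length in kilobases), over the 8 tumors other than Smc3/Bcl6 tumor 2. B2m had the highest median, 5546 RPKM, followed by H2-D1 with 2247 and H2-K1 with 1479 RPKM. Each of these was above the next in 9 of 9 tumors. Tapbp (239 RPKM) and Psmb8 (220 RPKM) overlapped, with Tapbp higher in 5 of 9 tumors, as did Tap1 (158 RPKM) and Psmb9 (152 RPKM), with Tap1 higher in 6 of 9. Tap2 had 81.6, Nlrc5 43.3 and Erap1 29.0 RPKM, with Tap2 above Nlrc5 in 9 of 9 tumors and Nlrc5 above Erap1 in 8 of 9. Per length, the surface molecule was above its loading machinery and Nlrc5 was near the bottom of the order.

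No difference between genotypes was detected for the 10 genes. At the thresholds of the study (log2 fold change beyond 0.56 in size, p before adjustment under 0.1), 0 of 10 genes were higher and 0 of 10 were lower in Smc3/Bcl6 tumors, against 1.28% and 0.868% of the 14057 genes tested. Log2 fold changes ran from -0.13 to 0.41 with a median of 0.10, against a median of 0.06 for all genes tested, and 5 of 10 were positive, against 57.4% of all genes. The smallest unadjusted p was 0.441 and the adjusted p was 1 for each gene (quasi-likelihood test of edgeR, Benjamini-Hochberg adjustment), and 0.0% of all genes had an adjusted p below 0.05. With an unadjusted p below 0.05 there were 0 of the 10 genes and 79 of all genes. Groups overlapped for 10 of 10 genes, whereas they did not overlap for 0.484% of all genes. With the replicate block, a fit that pairs tumors by number, 0 of 10 genes passed the thresholds as well.

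**Figure D1:**
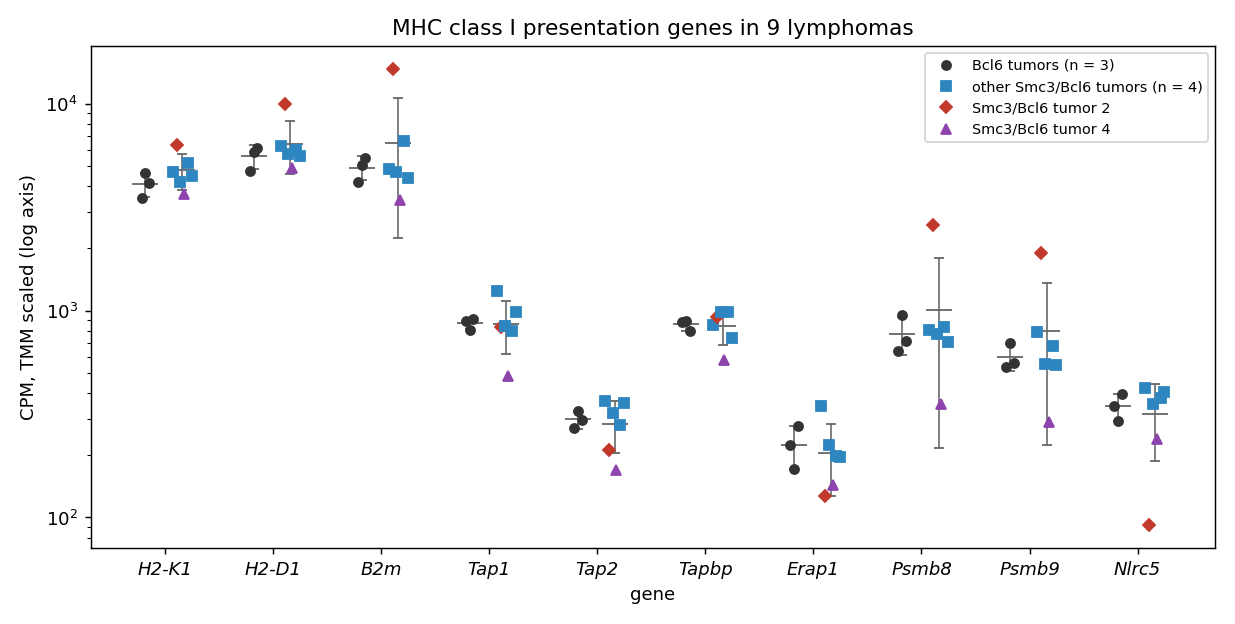
CPM (TMM scaled, log axis) of the 10 genes in 9 tumors, with black circles for Bcl6 tumors and colored symbols for Smc3/Bcl6 tumors; bars give the mean and SD of each genotype (n = 3 and n = 6). The genotypes overlap for every gene, Smc3/Bcl6 tumor 2 (diamond) is highest for 5 genes and lowest for Nlrc5 and Erap1, and Smc3/Bcl6 tumor 4 (triangle) is lowest for 6 of the other 8.

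The heavy chains and B2m were the most abundant members. In Bcl6 tumors 1, 2 and 3, H2-K1 was at 3515, 4610 and 4128 CPM, and its lowest, median and highest levels in the Smc3/Bcl6 group were 3682, 4598 and 6347 CPM. H2-D1 had 4742, 5872 and 6092 CPM in Bcl6 tumors, and 4873, 5837 and 10026 CPM (lowest, median, highest) in Smc3/Bcl6 tumors. Bcl6 tumor 1 was the lowest and Smc3/Bcl6 tumor 2 the highest of the 9 for both heavy chains, and the remaining tumors of the genotypes were interleaved. The log2 fold change was 0.22 (standard error 0.29, 95% interval -0.43 to 0.88) for H2-K1 and 0.20 (standard error 0.33, 95% interval -0.53 to 0.93) for H2-D1. These intervals allow a fold of 0.742 to 1.84 for H2-K1 and of 0.694 to 1.91 for H2-D1.

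B2m, the invariant light chain without which heavy chains do not reach the surface, had 4195, 5086 and 5459 CPM in Bcl6 tumors, and 3415, 4769 and 14770 CPM (lowest, median, highest) among the Smc3/Bcl6 libraries. The highest value, in Smc3/Bcl6 tumor 2, stood alone, as the other 8 tumors had between 3415 and 6585 CPM. Its log2 fold change was 0.39 (standard error 0.49), and -0.03 (standard error 0.29) without that tumor. Bcl6 tumors averaged 4913 ± 649 CPM (SD, n = 3), close to the 4783 ± 1150 CPM (SD, n = 5) of the remaining Smc3/Bcl6 tumors.

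The peptide transporter and loading genes were close in level between genotypes. Tap1 had 894, 802 and 907 CPM in Bcl6 tumors, and 482, 839 and 1250 CPM (lowest, median, highest) in Smc3/Bcl6 tumors. Tap2 had 270, 329 and 297 CPM in Bcl6 tumors, and 169, 300 and 367 CPM in Smc3/Bcl6 tumors. For both subunits, Smc3/Bcl6 tumor 4 was the lowest and Smc3/Bcl6 tumor 1 the highest of the 9, and the 3 Bcl6 tumors lay between them. Tapbp, the chaperone that bridges the transporter and the heavy chain, had 884, 895 and 793 CPM in Bcl6 tumors, and 580, 890 and 988 CPM in Smc3/Bcl6 tumors, again lowest in tumor 4. The log2 fold changes were -0.01 (standard error 0.31) for Tap1, -0.07 (standard error 0.29) for Tap2 and -0.02 (standard error 0.26) for Tapbp. The signs of these values turned with other normalizations, tests or a tumor left out.

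Erap1, which trims peptides to the length that fits class I, had 225, 171 and 276 CPM in Bcl6 tumors, and 127, 197 and 348 CPM (lowest, median, highest) among the Smc3/Bcl6 libraries. The estimate for Erap1 was -0.12 on the log2 scale (standard error 0.34). Nlrc5 had 346, 292 and 396 CPM in Bcl6 tumors, and 91.5, 368 and 422 CPM in Smc3/Bcl6 tumors. Smc3/Bcl6 tumor 2 was the lowest of the 9 for both genes, and for Nlrc5 the next value up was 240 CPM, in Smc3/Bcl6 tumor 4. The log2 fold change of Nlrc5 was -0.13 (standard error 0.42), and 0.07 (standard error 0.22) without Smc3/Bcl6 tumor 2.

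The inducible proteasome subunits had the widest spread. Psmb8 had 640, 947 and 717 CPM in Bcl6 tumors, and 352, 791 and 2591 CPM (lowest, median, highest) in Smc3/Bcl6 tumors. Psmb9 had 536, 700 and 557 CPM in Bcl6 tumors, and 290, 616 and 1907 CPM in Smc3/Bcl6 tumors. For each, tumor 4 was the lowest and tumor 2 the highest of the 9, and the others lay between 640 and 947 CPM for Psmb8 and between 536 and 791 CPM for Psmb9. The log2 fold changes were 0.40 (standard error 0.55) and 0.41 (standard error 0.52), and -0.13 (standard error 0.30) and -0.05 (standard error 0.30) without Smc3/Bcl6 tumor 2. With the replicate block they were 0.60 and 0.64, and unadjusted p stayed above 0.1.

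**Figure D2:**
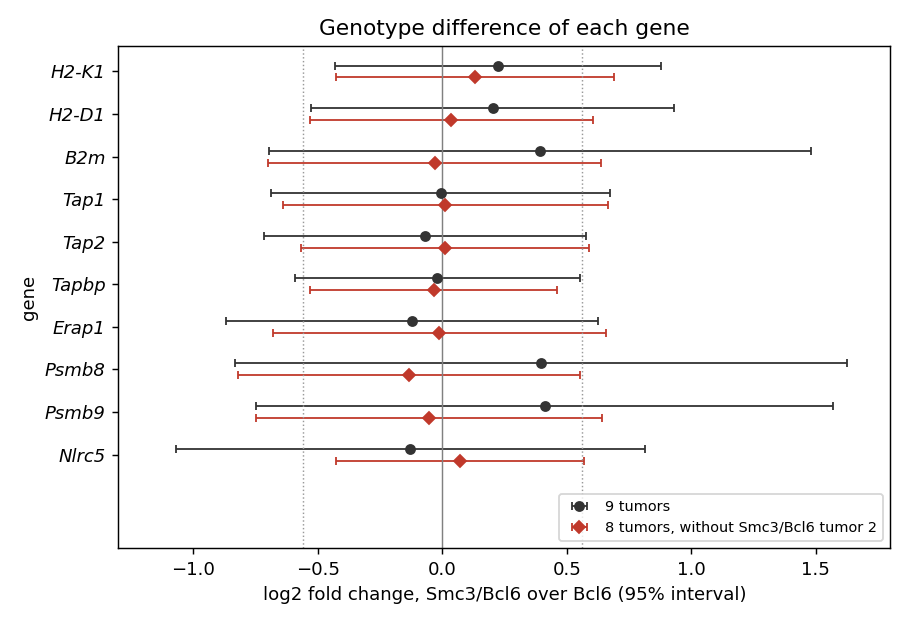
Log2 fold change (Smc3/Bcl6 over Bcl6) of each gene with its 95% interval from edgeR, over 9 tumors (circles) and over 8 tumors without Smc3/Bcl6 tumor 2 (diamonds); dotted lines mark 0.56 in either direction. Every interval includes 0, and without that tumor the estimates lie between -0.13 and 0.13.

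Without Smc3/Bcl6 tumor 2 the log2 fold changes of the 10 genes ran from -0.13 (Psmb8) to 0.13 (H2-K1), and the signs of B2m, Psmb8, Psmb9, Nlrc5, Tap1 and Tap2 turned. The intervals were narrower. That of Tapbp allowed a fold of 0.693 to 1.38 and that of Nlrc5 a fold of 0.743 to 1.48, whereas the lower end for Psmb8 was 0.566 and the upper end for H2-K1 was 1.62.

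The wider class I pathway was described with 68 genes of 5 lists, of which 63 were found and 61 tested. Of these, 0 were higher and 0 were lower at the thresholds of the study, with log2 fold changes from -1.22 (H2-Q10) to 0.36 (H2-T22) and a median of 0.05. The other class I heavy chains, with roles from natural killer cell inhibition (H2-T23) to lipid presentation (Cd1d1), gave 0 of 15, peptide loading and trimming 0 of 12, and class I transcription regulators 0 of 26. H2-Q8, H2-Q9, H2-T9, H2-L and H2-BL were not analysed here. Irf1, an interferon-induced regulator, was at -0.45 ± 0.36 (log2 fold change ± standard error). With limma and a quality weight per tumor, 5 of the 61 genes passed the thresholds, all lower in Smc3/Bcl6 tumors and each with an adjusted p of 0.563 (Irf1, Irf7, Psme2, Psmb10 and H2-Q10), but 7.13% of all genes were lower in that fit too, so the count is near the background. In edgeR's fit, leaving out Smc3/Bcl6 tumor 3 gave 3 genes (Irf1, Irf7 and H2-Q10, against 2.32% of all genes), leaving out Bcl6 tumor 1 gave 2 (Irf7 and H2-Q10, against 1.64%), and leaving out Smc3/Bcl6 tumor 4 gave 1 (H2-T24, against 1.08%), each lower in Smc3/Bcl6 tumors.

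Related programs had genes past the thresholds. Of 31 interferon-induced genes, 5 were lower and 0 higher at the same thresholds (Oas2, Mx1, Mx2, Ifit1 and Ifit2, antiviral genes), with log2 fold changes from -1.55 to -0.91 and adjusted p of 1 in edgeR's test, where 0.868% of all genes were lower. The genotypes overlapped for each of the 5. Over the list, 2 of 31 log2 fold changes were positive and the median was -0.48. T cell markers leaned the same way, with 0 of 8 positive and a median of -0.53, and their part was not tested. The only tested interferon ligand was Ifng, with 0.267 to 125 CPM in Smc3/Bcl6 and 5.38 to 92.2 CPM in Bcl6 tumors, and it overlapped widely. Of 10 MHC class II genes, 2 were higher and 0 lower, against 1.28% of all genes higher. Over the list, 10 of 10 log2 fold changes were positive with a median of 0.58. By mean log2 CPM over the class II list, Smc3/Bcl6 tumor 2 was highest (10.86), followed by Smc3/Bcl6 tumor 1 (10.66), with Bcl6 tumors at 9.787 to 10.09. For the interferon-induced list its mean was 4.81, and Smc3/Bcl6 tumor 4 was lowest (4.46). The counts and medians of both lists are given over all 9 tumors only, not without Smc3/Bcl6 tumor 2. B cell markers, which mark cells that express class II, were positive for 7 of 7 with a median of 0.36, and their part was not tested. The 2 class II genes past the thresholds were H2-Oa (log2 fold change 0.91, standard error 0.35) and H2-DMb2 (0.66, standard error 0.34). Both edit the peptide loading of class II, and their groups overlapped too. Ciita, the class II counterpart of Nlrc5, had 304 to 500 CPM in Bcl6 tumors and 131 to 643 CPM among Smc3/Bcl6 tumors, with a fold change of 0.26 on the log2 scale (standard error 0.45). Like Nlrc5 it was lowest in Smc3/Bcl6 tumor 2. Whether the change of class II or interferon genes differed from that of class I genes was not tested.

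The balance of inducible to constitutive proteasome was measured within each tumor as the mean log2 CPM difference of Psmb8, Psmb9 and Psmb10 from the constitutive subunits Psmb5, Psmb6 and Psmb7, which they replace. It was 1.6, 2.22 and 1.98 in Bcl6 tumors 1 to 3, and 1.73, 2.05 and 2.34 (lowest, median, highest) in Smc3/Bcl6 tumors. The genotypes overlapped, with means of 1.93 ± 0.31 (SD, n = 3) and 2.05 ± 0.20 (SD, n = 6), a difference of 0.12 (exact two-sided permutation test over the 84 splits of 9 tumors, p = 0.476, with 0.0238 the smallest possible). Without Bcl6 tumor 1 the difference was -0.05. The constitutive subunits followed the inducible ones in Smc3/Bcl6 tumors 2 and 4, but not throughout the other 7. Of those 7, Bcl6 tumor 1 was lowest for Psmb8 and Psmb9 and highest for Psmb7 (119 CPM). Psmb5 had 235 CPM in Smc3/Bcl6 tumor 2, 23.8 CPM in Smc3/Bcl6 tumor 4 and between 41.5 and 66.4 CPM in the other 7, so the high and low tumors for Psmb8 and Psmb9 were also high and low for their constitutive counterparts.

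**Figure D3:**
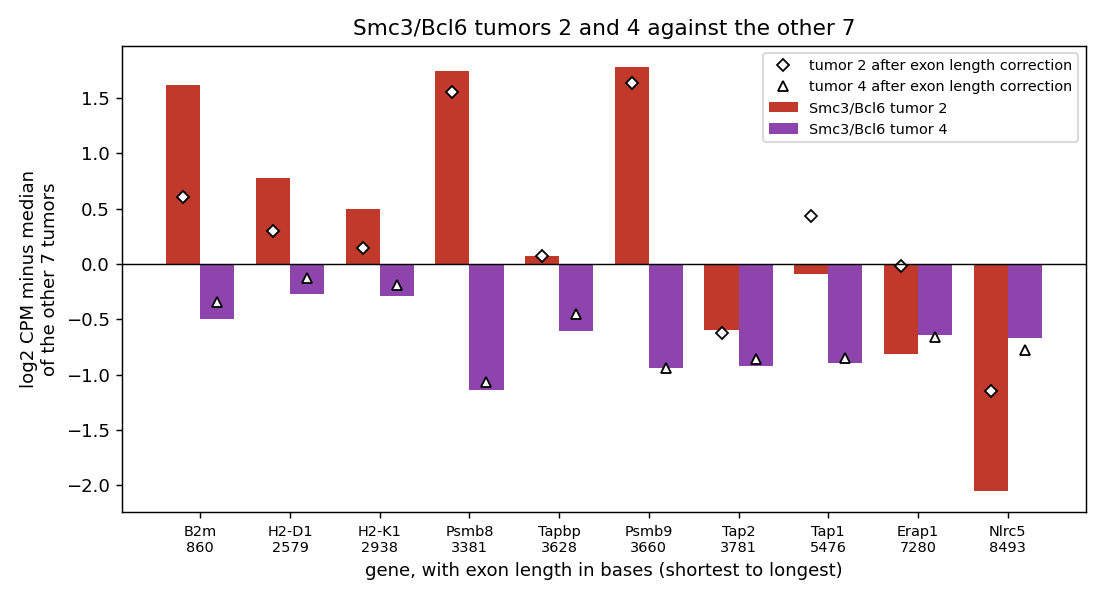
Log2 CPM of each gene in Smc3/Bcl6 tumors 2 and 4 minus its median over the other 7 tumors, with genes ordered by exon length in bases; open symbols give the same after correction for exon length. Tumor 2 runs from high at the shortest gene (B2m) to low at the longest (Nlrc5), and tumor 4 lies below 0 for all 10 genes.

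Smc3/Bcl6 tumors 2 and 4 held the lowest or the highest level of many of the genes, and departed from the others in different ways. Each was set against the median of the 7 tumors other than these. In tumor 2, log2 CPM was above that median for 6 of 10 genes (Psmb9 by 1.78, Psmb8 by 1.74, B2m by 1.61, H2-D1 by 0.77, H2-K1 by 0.50 and Tapbp by 0.07). It was -2.05 for Nlrc5, -0.82 for Erap1, -0.59 for Tap2 and -0.09 for Tap1. Many genes departed as far in this library, where 6644 of 14057 genes were above that median. Among all genes, the deviation of Psmb9 was at the 91.8th percentile, of B2m at the 89.6th and of H2-K1 at the 65.9th. The deviation of Nlrc5 was at the 9.89th percentile. The members split by length, with a Spearman correlation of -0.73 between exon length and this deviation over the 10 genes, a description over genes of a single library. The 6 shortest members, B2m (860 bases) to Psmb9 (3660 bases), were above the median and the longest, Nlrc5 (8493 bases), was furthest below. After a correction for exon length fitted over all genes, the excess of B2m was 0.61 and the deficit of Nlrc5 -1.15, whereas Psmb8 and Psmb9 kept 1.56 and 1.64. With library size alone as the scaling, the median gene was 0.68 lower in this tumor, and 4 rather than 6 members were above the median of the others. These counts of higher and lower members thus depend on the scaling, and the part of gene length in them was not tested further. This tumor also had the highest summed CPM of T cell (3154), cytotoxic and NK (6411) and plasma cell markers (5559), and the lowest of stromal and endothelial markers (19.6). A sum is carried by the most abundant markers. By mean log2 CPM over each list, this tumor was still highest for plasma cell and lowest for stromal and endothelial markers. By that mean it was below Bcl6 tumor 2 and Smc3/Bcl6 tumor 3 for T cell markers (8.09 against 8.295 and 8.25). The same held for cytotoxic and NK markers (6.94 against 7.176 and 7.36). The part of these cells was not tested.

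In Smc3/Bcl6 tumor 4, all 10 genes were below the median of the other 7 tumors, by 0.27 (H2-D1) to 1.14 (Psmb8) on the log2 scale with a median of -0.66. The median over all genes was -0.01, and 7143 of 14057 genes were below. All 10 were below under RLE scaling, library size scaling and the correction for exon length as well. The decrease was small in the heavy chains, -0.29 for H2-K1 and -0.27 for H2-D1, and larger in the transporter and the inducible proteasome, -0.89 for Tap1, -0.92 for Tap2, -0.94 for Psmb9 and -1.14 for Psmb8. The tumor also had the highest summed CPM of the 7 erythroid markers (12922 against 44.7 to 4663 in the others), of the 7 B cell markers (10650 against 2902 to 8837) and of the 7 stromal and endothelial markers (333 against 19.6 to 173), with Col3a1 and Lyve1 of the last list at 0 in some tumors. Its T cell markers summed to 360 CPM and its macrophage markers to 2614 CPM, within the range of the others. By mean log2 CPM over each list it was still highest for erythroid and B cell markers. For stromal and endothelial markers it was below Smc3/Bcl6 tumor 5 by that mean (2.365 against 2.505). The part of these cells in the low class I genes was not tested.

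The relation of each gene to Nlrc5 was measured by Pearson's r of log2 CPM across tumors, with an exact two-sided permutation test over all pairings. Over 9 tumors, 3 of the 9 other genes had a positive r and 6 a negative r, against 51.3% positive among all genes. Erap1 alone passed an unadjusted p below 0.05 (r = 0.77, Spearman's rho = 0.77, exact permutation p = 0.00591, adjusted p = 0.241 over 14056 genes), whereas 8.72% of all genes passed with a positive r and 6.42% with a negative r, and 0 passed an adjusted p below 0.05. Tap2 (r = 0.65, rho = 0.77) and Tap1 (r = 0.34, rho = 0.75) were also positive. B2m (r = -0.74, rho = -0.03), H2-D1 (r = -0.73, rho = 0.13), Psmb8 (r = -0.65, rho = -0.15), Psmb9 (r = -0.61, rho = 0.03) and H2-K1 (r = -0.56, rho = 0.03) were negative, with Tapbp near 0 (r = -0.02, rho = -0.18). The ranks did not follow the negative r, which rested on Smc3/Bcl6 tumor 2, where Nlrc5 was lowest and these 5 genes were highest. The call of Erap1 was lost after correction for exon length over the same 9 tumors (r = 0.52, exact permutation p = 0.16), and Tap2 passed instead (r = 0.82, exact permutation p = 0.0148). Nlrc5 and Erap1 are the longest of the 10 genes, and the deficit of Erap1 in Smc3/Bcl6 tumor 2 went from -0.82 to -0.021 with that correction.

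**Figure D4:**
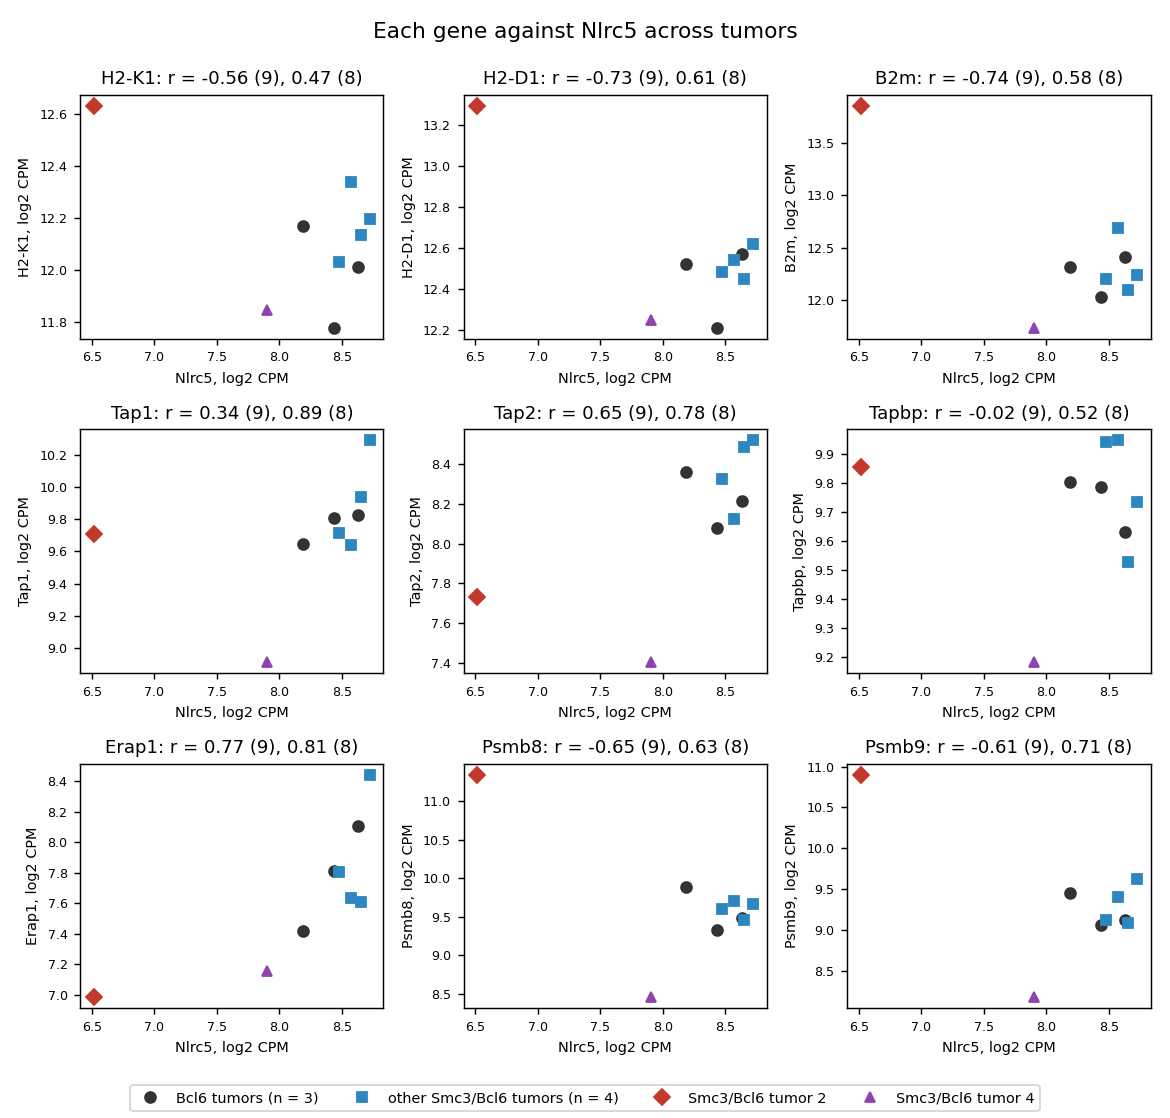
Log2 CPM of 9 genes against log2 CPM of Nlrc5, a point per tumor, with r over 9 tumors and over the 8 without Smc3/Bcl6 tumor 2 (diamond) above each panel. The diamond sets the negative slopes of H2-K1, H2-D1, B2m, Psmb8 and Psmb9, and Smc3/Bcl6 tumor 4 (triangle) lies at the low end of most of the others.

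Without Smc3/Bcl6 tumor 2, r was positive for 9 of 9 genes, against 49.4% of all genes, with a median of 0.63 and a range from 0.47 (H2-K1) to 0.89 (Tap1). Unadjusted p was below 0.05 for 3 of 9, against 4.75% of all genes with a positive r and 6.45% with a negative r. These were Tap1 (r = 0.89, rho = 0.83, exact permutation p = 0.00159), Erap1 (r = 0.81, rho = 0.67, exact permutation p = 0.0139) and Tap2 (r = 0.78, rho = 0.69, exact permutation p = 0.0375). Adjusted over all genes their p-values were 0.22, 0.342 and 0.432 by the same permutation test, and 0 genes passed 0.05. The r of Tap1 was above that of 99.6% of all genes, that of Erap1 above 98.3% and that of Tap2 above 97.7%. For the heavy chains and B2m, r was 0.47 to 0.61 and between 81.2% and 89.8% of genes had a lower r. Psmb9 (r = 0.71) and Psmb8 (r = 0.63) lay between these groups. A positive r was not particular to the members. It was found for 10 of 12 other peptide loading and trimming genes (median 0.63) and 3 of 3 constitutive proteasome subunits (median 0.54). The list of other inducible proteasome and regulator genes had 5 of 5 (median 0.23). Class I transcription regulators had 12 of 26 positive (median -0.04), and the other class I heavy chains 5 of 15 (median -0.57).

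These values in turn leaned on Smc3/Bcl6 tumor 4. The 2 tumors farthest from the median of Nlrc5 were Smc3/Bcl6 tumors 2 and 4, and without both of them, over 7 tumors, r was 0.69 for Erap1 and 0.68 for Tap1 (exact permutation p = 0.0885 and p = 0.106), between 0.02 and 0.33 for H2-D1, Tap2, H2-K1, B2m and Psmb9, and -0.40 and -0.43 for Tapbp and Psmb8. Thus 0 of 9 genes passed, and 7 were positive. Over 9, 8 and 7 tumors, r was 0.77, 0.81 and 0.69 for Erap1, and 0.34, 0.89 and 0.68 for Tap1. The value of Tap1 was lower in other settings. It was 0.23 over 9 tumors after exon length correction, 0.24 without Smc3/Bcl6 tumor 1 and 0.21 in the tumors labelled lymph node. Within the 7 tumors labelled lymph node, r ran from -0.80 (H2-D1) to 0.82 (Erap1), with signs as over 9 tumors, and the 2 tumors labelled mesenteric are too few for a value. After subtraction of the genotype means, r was 0.76 for Erap1 (exact permutation p = 0.0426) and had the same sign as before for all 9 genes.

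The genes most like Nlrc5 were outside the pathway. Over 9 tumors they included Apaf1 (r = 0.99), Zfp281 (0.98), Ccdc88a (0.98) and Usp47 (0.97), with exon lengths of 4937 to 13755 bases, and the least like were Pdcd2l (-0.99), Pts (-0.98) and Rnf25 (-0.98). Without Smc3/Bcl6 tumor 2, over 8 tumors, they were BC022687 (0.99), Snx18 (0.98), Tlr12 (0.98), Lpin3 (0.96) and B230217C12Rik (0.96), and at the other end Slc26a11 (-0.98), Chd8 (-0.98) and Slc50a1 (-0.97). The smallest adjusted p over all genes was 0.062 over 9 tumors and 0.149 over 8 tumors (permutation test as above).

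Among themselves the 10 genes varied together once Smc3/Bcl6 tumor 2 was left out. Of the 45 pairs, 45 had a positive r over 8 tumors, with a median of 0.69, whereas 49.9% of all pairs of tested genes were positive with a median near 0. Over 9 tumors 32 of 45 pairs were positive with a median of 0.40, and without tumors 2 and 4, over 7 tumors, 33 of 45 with a median of 0.31. The closest pairs over 8 tumors were Psmb8 with Psmb9 (r = 0.95), Tap1 with Tap2 (0.91) and Tap1 with Nlrc5 (0.89). H2-K1 with H2-D1 had 0.82, and the weakest was H2-K1 with Erap1 (0.20). Psmb8 with Psmb9 (0.75), H2-K1 with H2-D1 (0.76) and Tap1 with Tap2 (0.63) were still positive over the 7 tumors. The points of each pair share libraries and scaling, and these values are a description of the tumors. The SD of log2 CPM over 8 tumors had a median of 0.32, against 0.43 for all genes tested, and ran from 0.15 (H2-D1) to 0.44 (Psmb9). All genes tested include genes with far fewer counts than the members, and no set matched by level was compared. With Smc3/Bcl6 tumor 2 included, the SD ran from 0.24 (Tapbp) to 0.75 (Psmb8).

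Ratios within a tumor, which its scaling leaves nearly unchanged, gave the same genes side by side. Psmb8 over Psmb9 was 0.03 to 0.48 on the log2 scale in all 9 tumors, and H2-K1 over H2-D1 was -0.66 to -0.20. Tap1 over Tap2 ran from 1.29 to 1.98. Smc3/Bcl6 tumor 2 was within the range of the other 8 for Psmb8 over Psmb9, and held the lowest H2-K1 over H2-D1 (-0.66 against -0.56 to -0.20) and the highest Tap1 over Tap2 (1.98 against 1.29 to 1.77). Tap1 over Psmb9, the pair that starts from the shared stretch of DNA printed above, was 0.20 to 0.85 in 8 tumors and -1.19 in Smc3/Bcl6 tumor 2. There Psmb9 was counted 1907 CPM and Tap1 837 CPM, while in the other 8 tumors Tap1 was above Psmb9. Tap1 has 5476 and Psmb9 3660 exon bases, and the part of length in this reversal was not tested beyond the correction above, after which Tap1 was 0.43 and Psmb9 1.64 above the median of the other 7 tumors.

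**Figure D5:**
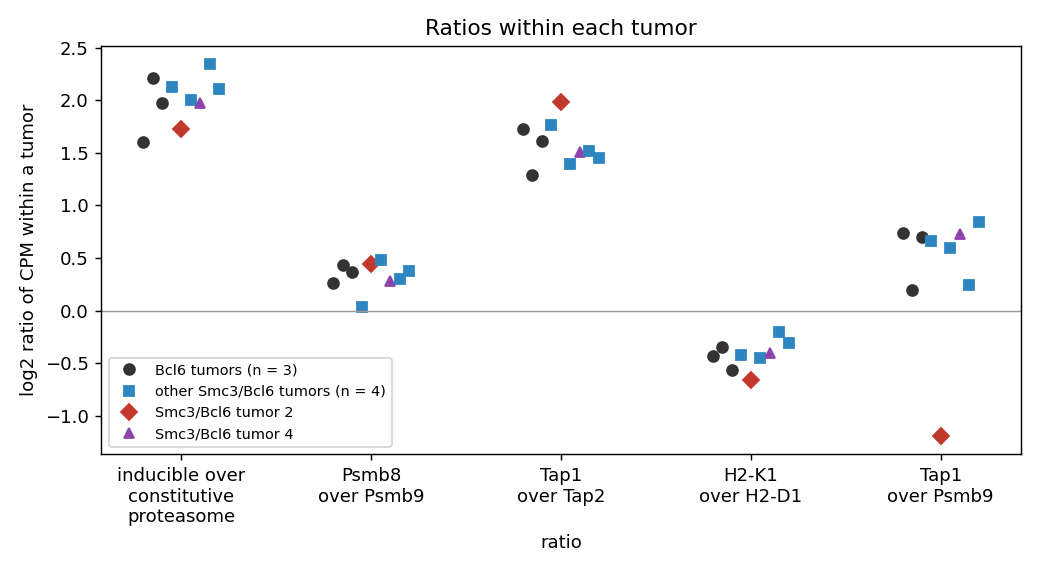
Log2 ratio of CPM within each tumor for the inducible over the constitutive proteasome (mean of 3 pairs) and for 4 pairs of class I genes. Points of the genotypes are interleaved in each column, and Smc3/Bcl6 tumor 2 (diamond) leaves the range of the others widely only for Tap1 over Psmb9, at -1.19 against 0.20 to 0.85.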

How the data were processed

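The authors sequenced Illumina TruSeq RNA libraries of 9 tumors, aligned the reads to mm10 and Gencode transcripts with STAR in the nf-core RNA-seq pipeline, used featureCounts for the gene totals and deposited raw counts. Whether counting used strand is not given in the sources used here. Totals ran from 10156728 to 17774577 counts, and 0 columns lacked a sample. Positions and exon lengths came from GENCODE M21 (GRCm38), which held 97.9% of the gene identifiers.

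Genotypes were compared over all 9 tumors with edgeR 4.0.16 in R 4.3.3 (TMM, edgeR's filter on low counts, quasi-likelihood test, Benjamini-Hochberg adjustment over 14057 genes), without covariates. The labels do not say whether tumors came from separate mice, so p-values measure the spread between these tumors. Log2 CPM used a prior count of 2, and relations to Nlrc5 were tested over all 362880 pairings of 9 tumors or 40320 of 8, two-sided on the absolute r. The scripts were tested on simulated data. DESeq2 1.42.0 and limma 3.58.1 were alternatives.

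The members and lists were chosen with earlier results of these data known, and the promoter motifs with the sequences in view. Named genes are the members, Smc3, Psmb10, Psmb5, Psmb6, Psmb7, Ciita, Irf1, at most 10 genes of the other lists past the thresholds (which also gave the erythroid gene Slc4a1, higher, and the neutrophil gene Mpo, lower), and the 5 genes with the highest and 3 with the lowest r with Nlrc5. Some genes that this rule names are not reported here. Irf7, Psme2, H2-Q10, H2-T22, H2-T23, H2-T24, Cd1d1, Ifng, Col3a1 and Lyve1 were named after their values were seen.

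Replicate numbers 1 to 3 occur in both genotypes. Deviations from the group means correlated between same-numbered tumors at 0.443, 0.113 and 0.155 across genes, so the replicate block was used as an alternative fit. The pairing comes from the labels' numbers and this check only.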

Additional observations from a re-analysis of the deposited data

Results flagged for a closer look

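Among the 6 Smc3/Bcl6 tumors, 11 measures (log2 CPM of the 10 genes and the proteasome ratio) were searched for an extreme library. The measure was the distance from the extreme value to the next, as a share of the whole range, set against Dixon's 95% critical value for 6 samples. Chance passes about 1 in 20 groups, and 2 of 11 passed, both through Smc3/Bcl6 tumor 2 and therefore not independent. Nlrc5 was lowest there (gap over range 0.629, 91.5 CPM against 240 to 422 CPM in the other 5), and H2-D1 was highest (gap over range 0.648, 10026 CPM against 4873 to 6282 CPM). Psmb8 (0.568) and B2m (0.552), also highest in this tumor, came next below the critical value. The share of all genes that would pass through this library was not counted, so 2 of 11 has no background here. Many genes departed as far in it. Against the 7 tumors other than Smc3/Bcl6 tumors 2 and 4, Nlrc5 was at the 9.89th percentile of all genes' deviations and H2-D1 at the 72.8th. The 3 Bcl6 tumors were too few for this examination. The cause was not tested.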

How the results depend on the processing

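Under all 19 alternative fits 0 of the 10 genes were higher and 0 were lower at the thresholds. The signs of small log2 fold changes turned in 37 of 190 values, and the cause was not tested. They were 0.018 for Tap1 and 0.010 for Tapbp with DESeq2, and also 0.018 and 0.010 with RLE normalization. With limma's quality weights they were -0.051 for B2m, 0.087 for Tap1, 0.0099 for Tap2, 0.16 for Nlrc5, -0.18 for Psmb8, -0.11 for Psmb9 and 0.054 for Erap1. Tap1 was 0.035 with the tissue label as a covariate and 0.063 with an exon length offset. Leaving out 1 tumor gave -0.030 to 0.48 for B2m, -0.33 to 0.055 for Erap1, -0.25 to 0.071 for Nlrc5, -0.13 to 0.53 for Psmb8, -0.053 to 0.54 for Psmb9, -0.14 to 0.10 for Tap1, -0.20 to 0.027 for Tap2 and -0.092 to 0.056 for Tapbp.

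With the replicate block, Tap1 was 0.11, Tapbp 0.071, r of Tapbp with Nlrc5 0.018, and the proteasome difference 0.020 (exact permutation p = 0.75). With so few pairs, that permutation test cannot reach a p below 0.05, so it settles nothing about the proteasome difference. The block changed no call among the 10 genes. Chosen after seeing the data, the block without number 2 gave -0.013 for B2m, 0.18 for Tap1, 0.27 for Tap2, 0.12 for Tapbp, 0.057 for Nlrc5 and 0.16 for Erap1, and the block with an exon length offset gave 0.27 for Tap1, 0.072 for Tapbp and 0.18 for Erap1.

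Of the 61 other class I genes, 0 passed the thresholds in the fit reported, 5 with limma's weights, 2 with the tissue label, 1 with the replicate block (H2-Q10), 2 with the block and length offset, and 0 to 3 when 1 tumor was left out. The share of all genes is given above for limma's weights and for the fits without 1 tumor that gave any gene. For the tissue label and both block fits it is not given, so those counts have no background here.

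The genes related to Nlrc5 at an unadjusted p below 0.05, 1 in the result reported, were 3 by Spearman's rho, 3 with library size scaling, 0 without the 2 tumors farthest from the median, and 1 to 3 when 1 tumor was left out (3 without Smc3/Bcl6 tumor 2 and 3 without Smc3/Bcl6 tumor 4). They were 5 after correction for exon length without tumor 2, chosen after seeing the data. The share of all genes that passed is given above only for the result reported and for that without Smc3/Bcl6 tumor 2. The counts of the other settings therefore have no background here. The sign of r turned by rho for H2-K1 (0.033), H2-D1 (0.13) and Psmb9 (0.033), with library size scaling for H2-K1 (0.18) and Tapbp (0.60), and with length correction for Tapbp (0.34). With that correction 1 gene still passed, Tap2 in place of Erap1. Without the 2 farthest tumors it turned for H2-K1 (0.18), H2-D1 (0.33), B2m (0.073) and Psmb9 (0.016). With length correction and without tumor 2 it turned for H2-K1 (0.45), H2-D1 (0.51), B2m (0.75), Tapbp (0.69), Psmb8 (0.78) and Psmb9 (0.81). Leaving out 1 tumor, r ran from -0.91 to 0.58 for B2m, -0.86 to 0.61 for H2-D1, -0.71 to 0.47 for H2-K1, -0.96 to 0.63 for Psmb8, -0.92 to 0.71 for Psmb9 and -0.30 to 0.52 for Tapbp, with each upper end the value without Smc3/Bcl6 tumor 2. The proteasome difference ran from -0.050 (without Bcl6 tumor 1) to 0.26. Depth was not varied, and its part in the precision was not tested.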
